A study of Mus musculus with 24 samples.

Results

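The AP-2 transcription factor family and its protein partners were followed across the embryonic brain of mice without *Tfap2b*. The 8 genes were chosen by name from 54446 genes counted, and they are the 5 AP-2 genes *Tfap2a*, *Tfap2b*, *Tfap2c*, *Tfap2d* and *Tfap2e*, the AP-2 repressors *Kctd1* and *Kctd15*, and the coactivator *Cited2*. The comparisons asked where in the brain each gene was read, what was left of *Tfap2b* in the mutants, and whether the levels of the other 7 genes differed when *Tfap2b* was lost.

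AP-2 proteins bind DNA as homodimers or heterodimers through a conserved basic and helix-span-helix region at the C-terminus, and the family members share closely related GC-rich target sites. KCTD1 and KCTD15 are BTB-domain proteins that bind the AP-2 activation domain and repress it, and CITED2 links AP-2 proteins to the acetyltransferases p300 and CBP. AP-2 factors are known from neural crest, skin and limb, and in the embryonic brain they mark neuron classes of the midbrain, cerebellum, hindbrain and cortex.

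Embryos at E14.5 came from matings of *Tfap2b*+/- parents. Controls were *Tfap2b*+/+ littermates, and mutants were *Tfap2b*-/- with a PGK-neo cassette in exon 4, an allele carried by every cell of the embryo without Cre. This follows the labels and the study's account of its animals. Its sequencing methods once name the mutants *Vgat-Tfap2b*-/-, a deletion in GABAergic neurons, and a supplementary legend names them *Tfap2b*+/-. Each of 12 embryos, 3 per sex and genotype, gave a library from the secondary prosencephalon (SP, the anterior forebrain) and a library from the pooled diencephalon, midbrain and hindbrain (DMH), 24 libraries in all. Levels are CPM, a gene's counts per 1000000 counts of the library, with library totals scaled over the 24 libraries by edgeR's TMM factors. Comparisons of genotypes were called at a false discovery rate (FDR) under 0.2 with an absolute log2 fold change over 0.5, and comparisons of regions at an FDR under 0.05 with an absolute log2 fold change over 1, by edgeR's quasi-likelihood test with Benjamini-Hochberg adjustment over all genes. In these bulk samples, fewer cells of a type and less RNA per cell cannot be told apart.

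From 24717386 to 66844175 fragments per library fell on genes, and 3 counts, the floor of detection, were 0.0455 to 0.123 CPM, for counting error only. The telencephalic and midbrain markers followed the labels, with 1115 to 1603 CPM summed over 5 telencephalic genes in SP against 110 to 247 CPM in DMH, and 290.4 to 567.9 CPM over 7 midbrain genes in DMH against 12.5 to 30.4 CPM in SP. The DMH pieces differed in caudal hindbrain RNA. Summed over 12 caudal *Hox* genes, female control 1 had 0.0378 CPM, female mutants 1 and 2 had 0.328 and 0.105 CPM and male mutant 2 had 11.5 CPM, while the other 8 pieces had 325 to 489 CPM, and the first 4 are called *Hox*-low pieces. Of 5 rostral hindbrain genes the *Hox*-low pieces had 15.04 to 30.42 CPM and the other DMH pieces 48.6 to 56.6 CPM, beside 25.9 to 32.8 CPM in SP, so that this list did not separate the regions in every library. The DMH piece of female mutant 3 also held 1918 CPM of 5 cartilage genes and 789 CPM of 7 skeletal muscle genes, against 69.4 to 92.3 and 5.90 to 8.82 CPM in the other 11. This embryo was left out of the comparisons, a choice taken over from the study. Both libraries labelled female control 2 held 122 to 133 CPM of 4 Y-linked genes, close to the libraries labelled male (125 to 194 CPM), and at most 0.0907 CPM of *Xist*; the label was kept, and the genotype values of *Tfap2b* and the female DMH values of *Tfap2c*, *Tfap2d* and *Tfap2e* are also given without this embryo.

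The exon that the cassette interrupts is shown because counts per gene cannot separate its upstream from its downstream side, so that a count in a mutant does not tell which part of the transcript was read. *Tfap2b* (ENSMUSG00000025927.13) spans chr1:19208914-19238576 on the forward strand of GRCm38, and exon 4 of all 3 of its coding transcripts in GENCODE vM21 is chr1:19226436-19226655, 220 bases that are all coding.
*Tfap2b* exon 4: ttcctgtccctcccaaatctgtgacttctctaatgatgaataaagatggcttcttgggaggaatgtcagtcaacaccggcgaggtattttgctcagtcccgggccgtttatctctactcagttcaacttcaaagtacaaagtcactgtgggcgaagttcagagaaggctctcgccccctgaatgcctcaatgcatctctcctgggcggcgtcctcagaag

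The coding sequences are set side by side because reads of closely related genes can be counted on each other. The longest exact run shared by any pair of their coding sequences was 29 bases, between *Tfap2a* and *Tfap2b*, and no pair shared a 100-base word. That run lies in the following 60 coding bases of *Tfap2b*, from base 1225 to 1284, set against the closest ungapped 60 bases of each other gene, with capitals for letters that differ from *Tfap2b*.
*Tfap2b*: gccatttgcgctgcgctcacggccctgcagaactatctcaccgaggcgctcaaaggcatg
*Tfap2a*: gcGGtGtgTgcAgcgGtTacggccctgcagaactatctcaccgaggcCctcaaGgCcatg
*Tfap2e*: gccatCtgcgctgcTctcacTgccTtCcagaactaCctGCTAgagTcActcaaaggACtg
*Tfap2c*: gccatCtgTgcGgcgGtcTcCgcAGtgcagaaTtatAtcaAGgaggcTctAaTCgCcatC
*Tfap2d*: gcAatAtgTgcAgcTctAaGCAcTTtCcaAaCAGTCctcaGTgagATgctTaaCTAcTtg
In this stretch *Tfap2a* differed from *Tfap2b* at 10 bases, *Tfap2e* at 14, *Tfap2c* at 18 and *Tfap2d* at 27. None of the 8 genes overlaps another annotated gene on its own strand, and 0.423% (*Tfap2b*) to 2.58% (*Tfap2a*) of their reads fell on the opposite strand.

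The AP-2 genes were not read alike in SP and DMH of controls. *Tfap2a* and *Tfap2b* were DMH genes, *Tfap2c* was an SP gene, *Tfap2d* was higher in DMH and read in both, and the regional differences of *Tfap2e* and the partner genes lay under the fold threshold. Of the 8 genes, 3 were called higher in DMH than in SP and 1 lower, beside 10.6% and 5.11% of 17196 genes tested in those directions.

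*Tfap2b* (AP-2 beta) had the widest difference upward among the 8, with 281, 392 and 435 CPM as the lowest, median and highest of 6 control DMH libraries against 3.48, 3.93 and 4.19 CPM in SP. It was 95.7-fold higher in DMH (log2 fold change 6.58, SE 0.12, edgeR adjusted p = 1.83e-13). *Tfap2a* (chr13:40715302-40738376, AP-2 alpha, a regulator of neural crest and of inhibitory interneurons of hindbrain and cerebellum) had 28.6, 37.6 and 48.9 CPM in DMH against 0.623, 0.840 and 1.10 CPM in SP. The DMH and SP libraries of both genes did not overlap, and *Tfap2a* was 44.7-fold higher in DMH (5.48, SE 0.13, edgeR adjusted p = 5.50e-13).

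*Tfap2c* (chr2:172549593-172558622, AP-2 gamma, known in cortex from radial glia and basal progenitors) showed the reverse order. Its lowest, median and highest levels were 35.3, 47.1 and 51.7 CPM in control SP and 0.272, 0.393 and 0.934 CPM in control DMH, where 9 to 44 fragments were counted. The libraries did not overlap, and *Tfap2c* was 85.8-fold lower in DMH (−6.42, SE 0.21, edgeR adjusted p = 1.50e-10). *Tfap2d* (AP-2 delta, a gene of the dorsal midbrain), whose body ends 42.6 kb before *Tfap2b* starts on chromosome 1 (chr1:19103022-19166346), had 21.8, 29.4 and 45.6 CPM in DMH against 8.02, 9.31 and 11.0 CPM in SP. Every DMH library was above every SP library, by 3.18-fold on average (1.67, SE 0.16, edgeR adjusted p = 1.71e-06).

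*Tfap2e* (chr4:126716006-126736240, AP-2 epsilon, a gene of the olfactory bulb and vomeronasal organ) was the sparsest of the family over both regions, with 1.03, 1.68 and 4.50 CPM in control DMH and 1.81, 3.44 and 4.16 CPM in SP. These ranges overlapped, and the log2 difference of −0.60 (SE 0.23, edgeR adjusted p = 0.0300) lay under the fold threshold. *Kctd1* was 1.32-fold higher in DMH (0.40, SE 0.05, edgeR adjusted p = 1.43e-06) and *Kctd15* 1.14-fold lower (−0.19, SE 0.05, edgeR adjusted p = 0.00191), both small beside the threshold. *Cited2* had 82.8 to 104 CPM in DMH and 86.9 to 95.5 CPM in SP (0.03, 95% interval −0.07 to 0.13).

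Levels per kilobase of exon allow only a rough order between genes, as the lengths were taken over all annotated exons of a gene. By this measure *Tfap2b* led in control DMH with 59.6 ± 9.62 CPM per kb (SD, n = 6). It was followed by *Cited2* (38.3 ± 3.35), *Kctd15* (15.7 ± 1.03), *Tfap2d* (15.6 ± 4.15), *Tfap2a* (7.78 ± 1.34), *Kctd1* (5.27 ± 0.493), *Tfap2e* (1.05 ± 0.612) and *Tfap2c* (0.139 ± 0.0674). In this order *Kctd15* and *Tfap2d* overlapped, as did *Tfap2a* and *Kctd1*, and the other neighbours did not. In control SP the order of these levels was *Cited2* (37.2 ± 1.17), *Kctd15* (17.8 ± 0.892), *Tfap2c* (12.4 ± 1.69), *Tfap2d* (4.82 ± 0.588), *Kctd1* (3.95 ± 0.121), *Tfap2e* (1.53 ± 0.469), *Tfap2b* (0.614 ± 0.0455) and *Tfap2a* (0.170 ± 0.0364 CPM per kb, n = 6), with *Tfap2d* and *Kctd1* as the overlapping neighbours.

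**Figure D1:**
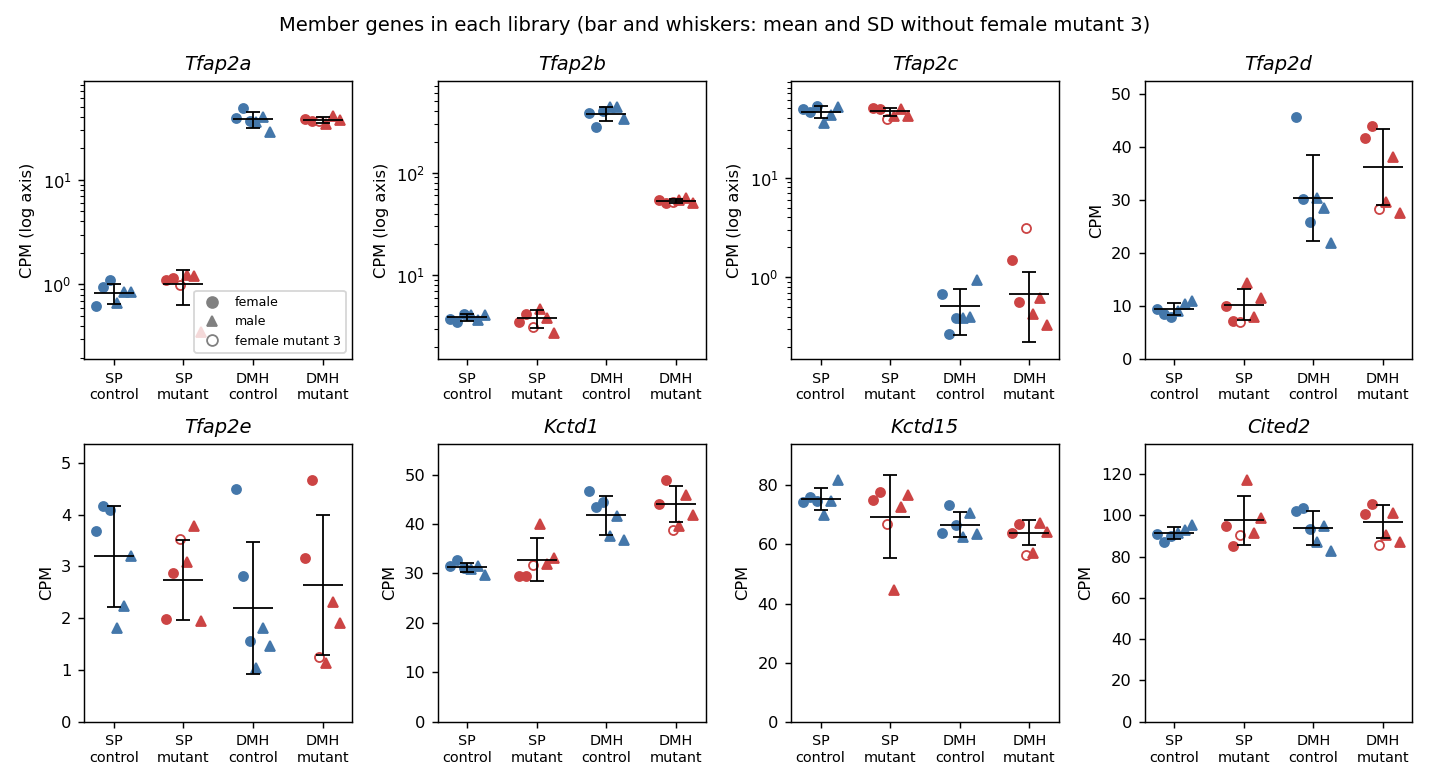
CPM of the 8 genes in each of the 24 libraries, by region and genotype, on a log axis for *Tfap2a*, *Tfap2b* and *Tfap2c* and a linear axis from 0 for the others. Circles are female and triangles male libraries, the open circle is the left out female mutant 3, and bars with whiskers are the mean and SD of the rest. *Tfap2b* in DMH is the panel in which mutants (50.4 to 56.6 CPM) and controls (281 to 435 CPM) do not overlap.

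*Tfap2b* RNA was reduced but still counted in the mutant DMH, in both sexes. In female DMH, controls 1, 2 and 3 had 384, 281 and 400 CPM, and mutants 1 and 2 had 53.7 and 50.4 CPM. In male DMH the controls had 435, 435 and 331 CPM and the mutants 54.1, 56.6 and 51.1 CPM. All 5 mutants lay far below all 6 controls and close to each other, and the left out female mutant 3 was among them with 51.7 CPM.

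Over both sexes *Tfap2b* fell by 2.85 on the log2 scale (SE 0.11, edgeR adjusted p = 2.54e-07), 7.20-fold, to 14.1% of the control mean. It was the only member called of 8, where 0.0523% of 17223 genes were. The share of genes called depended on the setting. It was 0.221% with the likelihood ratio test, 0.296% with DESeq2 and 3.1% without male mutant 1, and *Tfap2b* was the only member called in each. In female DMH, where 0.00596% of genes tested were called, *Tfap2b* was the gene called (−2.76, SE 0.17, edgeR adjusted p = 0.00946). There the likelihood ratio test called 0.62% of genes and DESeq2 0.453%, with *Tfap2b* again the only member. Without female mutant 1, which leaves 1 female mutant, the value was −2.80 and was not called. In male DMH, where 0.0236% of genes were called, the value was −2.92 (SE 0.11, edgeR adjusted p = 2.45e-05). Without female control 2, whose Y-linked reads go against its label, the value was −2.91 over both sexes and −2.91 in female DMH. In a test of the difference between the sexes itself, the male value minus the female value was −0.16 (95% interval −0.62 to 0.30, edgeR adjusted p = 1.00), and 0% of 17555 genes were called. Without female control 2 this difference was −0.01 (95% interval −0.35 to 0.33).

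What remained of *Tfap2b* kept its regional order. In mutants it was 13.5-fold higher in DMH than in SP (3.75, SE 0.13, edgeR adjusted p = 8.13e-09), beside 9.61% of 17148 genes called higher and 5.63% called lower in DMH. Alongside it *Tfap2a* (5.15, SE 0.22), *Tfap2c* (−6.22, SE 0.25) and *Tfap2d* (1.77, SE 0.22) were called in mutants in the directions seen in controls, so that the regional calls of the AP-2 genes were the same 4 in both genotypes. In the 2 mutant embryos whose DMH piece had at least 50 CPM of caudal *Hox* genes, the *Tfap2d* value was 1.05 (SE 0.20, 2.08-fold), against 1.53 in such controls. These were male mutants 1 and 3, with 29.7 and 27.6 CPM of *Tfap2d* in DMH. In SP they had 14.4 and 11.6 CPM, above every other SP library. Both SP libraries also stood apart in other genes, as given below, and the part of this was not tested. In SP, *Tfap2b* itself had 3.48 to 4.19 CPM in controls and 2.75 to 4.72 CPM in 5 mutants, and these ranges overlapped (−0.01, 95% interval −0.31 to 0.29, and −0.03 without female control 2). Its genotype difference was larger in DMH than in SP by −2.83 on the log2 scale (SE 0.16, edgeR adjusted p = 5.48e-10), where 0.00565% of 17684 genes were called for such a difference. Without female control 2 it was −2.87.

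No paralog of *Tfap2b* was called in the mutant DMH. Their intervals were of unequal width, tight for *Tfap2a* and wide for *Tfap2c* and *Tfap2e*. *Tfap2a* is the AP-2 gene known to be made together with *Tfap2b* in many inhibitory neurons of the hindbrain and cerebellum. Its DMH levels were 38.9, 48.9 and 36.3 CPM in female controls and 37.7 and 36.6 CPM in female mutants 1 and 2. Male controls had 36.1, 40.0 and 28.6 CPM and male mutants 34.0, 41.2 and 37.5 CPM. Every mutant lay within the range of the controls. The estimate was −0.02 on the log2 scale (edgeR adjusted p = 0.940, SE 0.10), and its 95% interval of −0.23 to 0.20 spans a change between −14.7% and 14.6%.

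*Tfap2d*, the neighbour of *Tfap2b* on chromosome 1, had 45.6, 30.3 and 25.9 CPM in female control DMH and 41.6 and 44.0 CPM in female mutants 1 and 2. Males had 30.3, 28.5 and 21.8 CPM in controls and 29.7, 38.0 and 27.6 CPM in mutants. The groups overlapped, with 4 of 5 mutants above the control median, and mutants were higher by 0.28 on the log2 scale, with a 95% interval of −0.06 to 0.61 (SE 0.15, edgeR adjusted p = 0.367).

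*Tfap2e* was at 4.50, 2.81 and 1.55 CPM in female control DMH and 3.15 and 4.67 CPM in the female mutants. In males the controls had 1.03, 1.81 and 1.46 CPM and the mutants 1.13, 2.31 and 1.92 CPM. The groups overlapped here too (0.34, SE 0.28, 95% interval −0.27 to 0.94, edgeR adjusted p = 0.516). *Tfap2c* was low in DMH throughout, at 0.272 to 0.934 CPM in controls and 0.330 to 1.47 CPM in mutants (0.29, SE 0.41, 95% interval −0.61 to 1.19), an interval that holds a fall to 0.654 of the control level and a rise to 2.28 times it. With female mutant 3 included the *Tfap2c* value was 0.85 (−0.35 to 2.05).

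**Figure D2:**
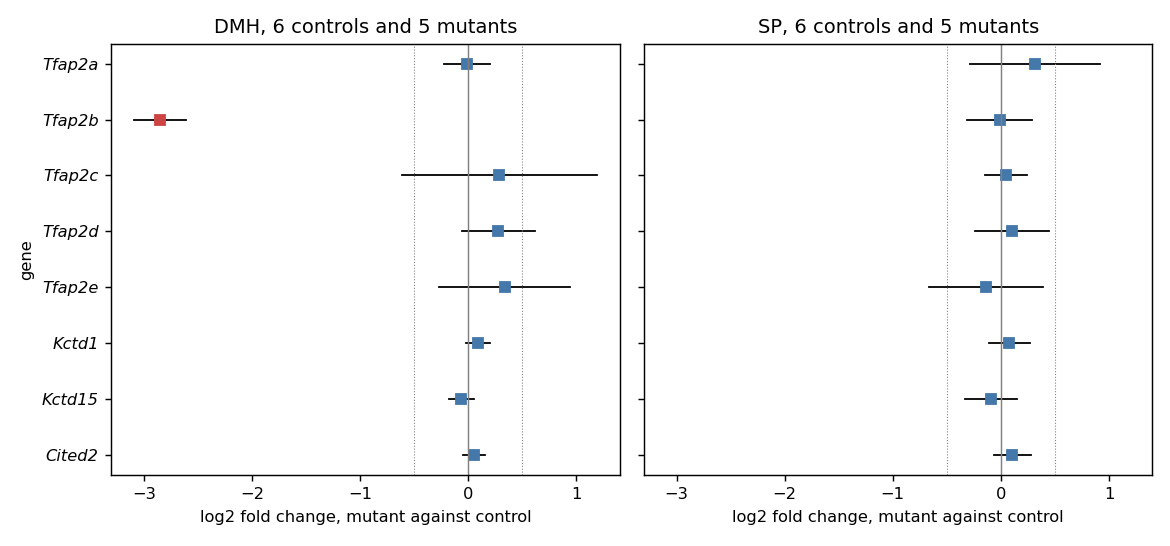
Log2 fold change of mutants against controls for the 8 genes, over both sexes with sex as a covariate, in DMH (left) and SP (right). Squares are edgeR estimates, red where called, lines are 95% intervals, and dotted lines mark the fold threshold of 0.5. *Tfap2b* in DMH, at −2.85, is the only called value of the 16.

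The levels of *Tfap2d* and, with some overlap, *Tfap2e* differed with the caudal *Hox* content of the DMH piece, where 1 control and 3 mutants were *Hox*-low. In the 4 *Hox*-low pieces, all under 50 CPM of caudal *Hox* genes, *Tfap2d* was at 45.6 CPM in the control and 38.0 to 44.0 CPM in the 3 mutants. In the 8 other pieces it was at 21.8 to 30.3 CPM in controls and 27.6 to 29.7 CPM in mutants, female mutant 3 included. The *Hox*-low pieces were all above the others, whichever the genotype. They also had more midbrain (504 to 567.9 against 290.4 to 420.1 CPM) and telencephalic RNA (197 to 247 against 110 to 172 CPM), and the part of each in the result was not tested. *Tfap2e* was at 4.50 CPM in the control and 2.31 to 4.67 CPM in the mutants among the former, and at 1.03 to 2.81 CPM in controls and 1.13 to 1.92 CPM in mutants among the latter.

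Of the pieces compared, 3 of 5 mutants and 1 of 6 controls were *Hox*-low, so the genotype values were also computed with the *Hox* level held. With the caudal *Hox* level as a covariate, the log2 fold change was 0.03 for *Tfap2d* (95% interval −0.17 to 0.23), −0.07 for *Tfap2e* (−0.56 to 0.42), −0.22 for *Tfap2c* (−1.08 to 0.65) and 0.01 for *Tfap2a* (−0.26 to 0.28), and −2.91 for *Tfap2b* (−3.19 to −2.63). Within the pieces with at least 50 CPM of caudal *Hox* genes, 5 controls and 2 mutants, both mutants compared were male, so that with sex as a covariate these are values of male mutants against male controls. They were 0.08 for *Tfap2d*, −0.01 for *Tfap2e*, −0.66 for *Tfap2c*, 0.02 for *Tfap2a* and −2.95 for *Tfap2b*. The *Tfap2b* difference was as large in these settings, and the signs of *Tfap2e*, *Tfap2c* and *Tfap2a* turned in both.

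In female DMH both mutants compared were *Hox*-low, as was control 1 of 3. There the log2 fold changes were 1.20 for *Tfap2c* (SE 0.51), 0.35 for *Tfap2d* (SE 0.24) and 0.43 for *Tfap2e* (SE 0.43), none called. Over 13 alternatives they ran from 0.38 (without female mutant 1) to 1.99 (female mutant 3 included) for *Tfap2c*, and from 0.17 and 0.03 (female mutant 3 included) to 0.62 and 0.86 (without female control 1) for *Tfap2d* and *Tfap2e*. Without female control 1, where genotype and *Hox* content coincide and cannot be told apart, *Tfap2c* (1.60, edgeR adjusted p = 0.159), *Tfap2d* (0.62, edgeR adjusted p = 0.0354) and *Tfap2e* (0.86, edgeR adjusted p = 0.186) passed the thresholds beside *Tfap2b*, in a setting where 6.63% of 16848 genes were called. *Tfap2c* also passed when no gene was filtered for low counts (1.20, edgeR adjusted p = 0.0765), where 1.81% of 29519 genes were called. Without female control 2 the values were 0.93 for *Tfap2c*, 0.27 for *Tfap2d* and 0.40 for *Tfap2e*, none called. The difference of the *Tfap2c* effect between the sexes was −1.64 (male minus female, SE 0.71, 95% interval −3.18 to −0.09, edgeR adjusted p = 1.00). It was −1.23 with the *Hox* level as a covariate (95% interval −2.68 to 0.22) and −1.37 without female control 2 (−2.99 to 0.26). The female mutants had 1.47 and 0.561 CPM against 0.680, 0.272 and 0.388 CPM in female controls, and the left out female mutant 3 had 3.09 CPM, beside its cartilage and muscle RNA, 1319 CPM of 10 neural crest mesenchyme and meninges genes (232 to 358 CPM in the other DMH pieces) and a surface ectoderm sum (7 genes) of 6.48 CPM, within the 3.60 to 10.2 CPM of those pieces. The part of these in the *Tfap2c* level was not tested.

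**Figure D3:**
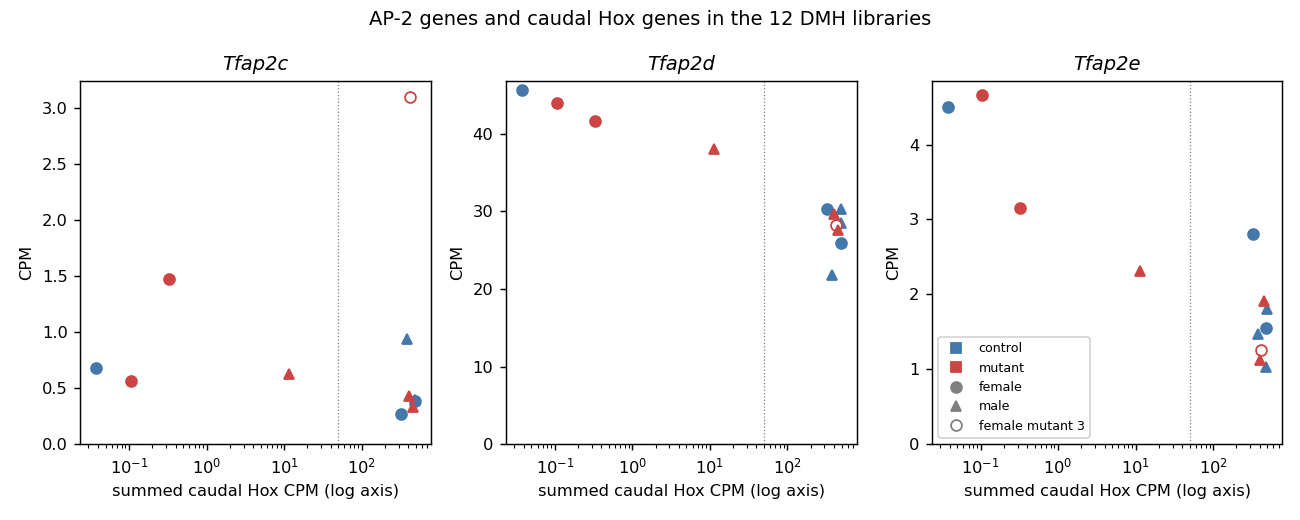
CPM of *Tfap2c*, *Tfap2d* and *Tfap2e* (linear axes from 0) against the summed CPM of 12 caudal *Hox* genes (log axis) in the 12 DMH libraries, blue for controls and red for mutants, circles for females and triangles for males, with female mutant 3 open. The dotted line is 50 CPM. For *Tfap2d* the 4 pieces to the left of it (38.0 to 45.6 CPM) all lie above the 8 to the right (21.8 to 30.3 CPM).

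Summed per kilobase of exon, AP-2 transcripts in DMH fell with *Tfap2b*. The sum was 84.1 ± 10.9 CPM per kb in controls (SD, n = 6), of which *Tfap2b* held 62.3 to 74.6% by library, *Tfap2d* 15.6 to 24.8% and *Tfap2a* 7.99 to 13.99%. In the 5 mutants the mean was 36.0 CPM per kb, or 42.8% of the control mean. The mean of *Tfap2b* fell by 51.2 CPM per kb in mutants, and the summed mean of the other 4 genes was 3.07 CPM per kb higher (24.5 in controls and 27.6 in mutants), of which *Tfap2d* made up 2.96. This sum is a description without a test, and *Tfap2d*, the largest part of the gain, was at 38.0 to 45.6 CPM in *Hox*-low pieces and 21.8 to 30.3 CPM in the others, as given above.

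The makeup of the family differed as its largest member fell, which by itself raises the shares of the other genes. The level of *Tfap2a*, for example, was 98.1% of the control mean in DMH of the 5 mutants compared. Over the 6 mutant DMH libraries *Tfap2d* held 45.8 to 55.8% of the sum, *Tfap2b* 19.7 to 27.2% and *Tfap2a* 18.5 to 24.8%. Per kilobase of exon, *Tfap2d* thus stood above *Tfap2b* in every mutant piece and below it in every control piece. Without division by length the order in mutants was the reverse, with *Tfap2b* at 50.4 to 56.6 CPM and *Tfap2d* at 27.6 to 44.0 CPM. Which part of the interrupted *Tfap2b* transcript was read in mutants is not known, so the order there depends on the length used. In SP the sum was 19.6 ± 2.13 CPM per kb in controls and 19.3 ± 1.65 in the 6 mutants, with *Tfap2c* at 60.3 to 66.9% and 53.1 to 69.2% of it.

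**Figure D4:**
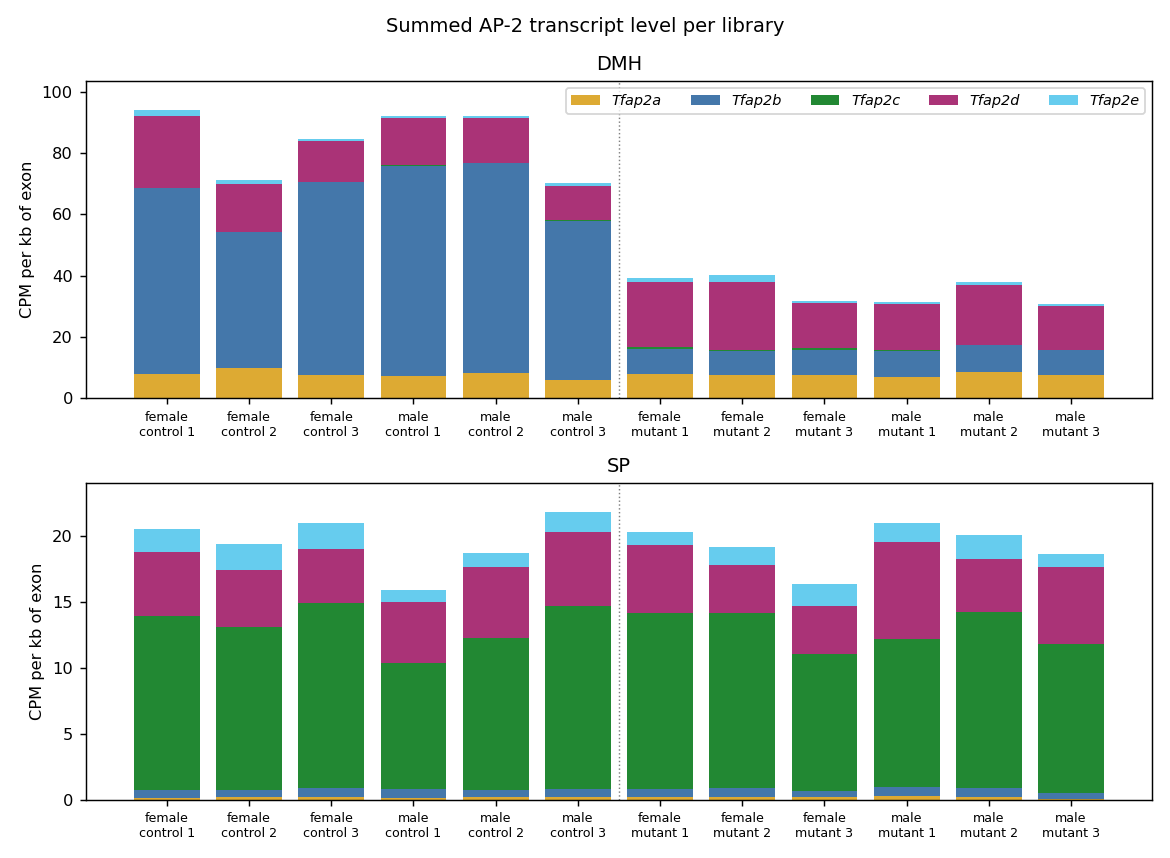
Summed CPM per kb of exon of the 5 AP-2 genes (stacked) in each DMH library (top) and SP library (bottom), controls left of the dotted line and mutants right, female mutant 3 included. The DMH sum is 70.1 to 94.2 in controls and 30.9 to 40.3 in mutants, and *Tfap2c* makes up most of every SP bar.

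In SP, where *Tfap2b* was at 2.75 to 4.72 CPM, 0 of the 8 genes were called over both sexes by edgeR, where 0% of 16973 genes were called and 861 had an unadjusted p under 0.05. The log2 fold changes ran from −0.14 (*Tfap2e*) to 0.31 (*Tfap2a*), with adjusted p of 0.901 to 0.995. *Tfap2c*, the AP-2 gene of this region, had a value of 0.05 (95% interval −0.15 to 0.24), and its levels of 35.3 to 51.7 CPM in controls and 41.2 to 49.4 CPM in mutants overlapped. *Tfap2a* was low throughout, at 0.623 to 1.10 CPM in controls, and in the mutants 4 libraries lay above that range (1.11 to 1.23 CPM) and male mutant 3 below it (0.348 CPM), for a log2 fold change with an interval of −0.29 to 0.91. That library also had the lowest sums of 5 choroid plexus genes (40.9 against 206 to 544 CPM in the other SP libraries), of the neural crest mesenchyme and meninges list (65.7 against 174 to 257 CPM) and of surface ectoderm genes (2.23 against 3.49 to 8.79 CPM), and their part was not tested.

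*Tfap2e* in SP is given by sex. Female controls had 3.67, 4.16 and 4.09 CPM and mutants 1 and 2 had 1.99 and 2.86 CPM, while the left out mutant 3 had 3.52 CPM. The mutants in the test lay below all 3 controls (−0.70, SE 0.17, 95% interval −1.08 to −0.32, edgeR adjusted p = 1.00), where 0.0181% of 16615 genes were called. The difference between the sexes in SP was not tested. Males had 1.81, 2.24 and 3.20 CPM in controls and 3.09, 3.78 and 1.95 CPM in mutants (0.29, SE 0.32), where 0% of 16562 genes were called. The female value passed the thresholds without a filter on low counts (edgeR adjusted p = 0.0899), where 0.0855% of 29246 genes were called, and without female control 2 it was −0.66 and was not called.

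Neither KCTD repressor nor *Cited2* was called by genotype. *Kctd1* (chr18:14968685-15151446) had 36.8 to 46.6 CPM in control and 39.6 to 48.9 CPM in mutant DMH (0.09, 95% interval −0.02 to 0.20). *Kctd15* (chr7:34639014-34656732) had 62.5 to 73.2 CPM and 56.9 to 67.3 CPM (−0.07, −0.18 to 0.05). *Cited2* (chr10:17723218-17725674) had 82.8 to 104 CPM and 87.0 to 106 CPM (0.05, −0.05 to 0.16). The groups overlapped for all 3, and the intervals ran from −11.8% (the lower end for *Kctd15*) to 15.2% (the upper end for *Kctd1*). In the pieces with at least 50 CPM of caudal *Hox* genes the *Kctd15* value was −0.13 (−0.30 to 0.04), and that of *Cited2* was −0.01.

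*Kctd1* and *Cited2* also sat higher in the *Hox*-low DMH pieces, at 44.0 to 48.9 and 101 to 106 CPM against 36.8 to 44.5 and 82.8 to 104 CPM in the others. Across the 12 DMH libraries their log2 levels correlated with each other (r = 0.90), with *Tfap2d* (0.76 and 0.80) and with *Tfap2e* (0.85 and 0.84), a description over pieces that differ in *Hox* content and depth. In SP, 1 library stood apart for the partner genes. Male mutant 1 had 39.9 CPM of *Kctd1*, 44.6 CPM of *Kctd15* and 117 CPM of *Cited2*, against 29.4 to 33.1, 66.9 to 81.8 and 85.4 to 98.8 CPM in the other 11. The same library had the highest telencephalic sum (1603 CPM) and the highest share of unmapped fragments (9.98%) of the SP libraries, and the part of these was not tested. Over both sexes in SP the log2 fold changes were 0.08 for *Kctd1*, −0.09 for *Kctd15* and 0.11 for *Cited2*, and without this embryo −0.01, 0.01 and 0.02.

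Other proteins that bind, modify or act with AP-2 factors, and the KCTD clade next to *Kctd1* and *Kctd15*, were read as lists. Of 12 cofactor genes, among them the acetyltransferases *Ep300* and *Crebbp* and the further CITED genes, 12 were tested in DMH and 11 in SP and 0 were called by genotype in either, where 0.0523% and 0% of all genes were. Their median log2 fold change was 0.05 in DMH and 0.11 in SP, beside −0.00 and 0.00 over all genes tested. The 4 KCTD relatives, auxiliary subunits of GABA-B receptors, also had 0 calls by genotype (medians −0.17 and −0.18). By region, 2 of these 4 were higher in control DMH, *Kctd8* (1.51) and *Kctd16* (2.32), and 0 of the cofactors passed the thresholds, beside 10.6% of all genes higher and 5.11% lower.

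The neuron classes that use AP-2 factors were read as 2 further lists. Of 5 noradrenergic genes tested in DMH of both sexes, 2 were called lower, *Dbh* (dopamine beta-hydroxylase) and *Slc6a2* (the noradrenaline transporter), where 0.0523% of all genes were called. *Dbh* had 1.13 to 3.30 CPM in controls and 0 to 0.495 CPM in mutants (−3.62, SE 0.48, edgeR adjusted p = 0.0751), and *Slc6a2* had 2.99 to 9.65 and 0.491 to 2.62 CPM (−2.15, SE 0.33, edgeR adjusted p = 0.162), without overlap. In female DMH 0 of the 5 were called by edgeR (smallest adjusted p 0.551, 1492 of all genes with an unadjusted p under 0.05). In male DMH, where 0.0236% of all genes were called, *Dbh* and *Slc6a2* were called under all 14 alternatives (−3.07 and −1.88, edgeR adjusted p = 0.00259 for each). With the *Hox* level as a covariate the values over both sexes were −3.13 and −1.70 (edgeR adjusted p = 0.000493 and 0.191). They were called over both sexes under 16 and 9 of 21 (largest adjusted p 0.312 and 0.439). Over both sexes both lost their calls without a filter and at an FDR under 0.05, and *Slc6a2* also in some other settings, unstranded counts among them. With replicates left out, *Dbh* lost its call without male control 1, male control 2 or male mutant 2, and *Slc6a2* without female control 2, without any of the male controls, and without any mutant but male mutant 1. The other genes of the list, *Phox2a*, *Th* and *Slc18a2*, were not called. Their mean levels in control and mutant DMH were 1.83 and 0.977 CPM for *Phox2a*, 9.76 and 10.9 CPM for *Th*, and 23.6 and 25.0 CPM for *Slc18a2*. The means of *Th* and *Slc18a2* were thus higher in mutants. Of the 6 genes of the *Ptf1a* lineage of inhibitory neurons, which include *Tfap2a* and *Tfap2b* themselves, *Tfap2b* was the 1 called lower. Both lists were drawn up with these results already known and lend no support of their own.

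The genes with the most similar profiles were taken over the 24 libraries among 14387 genes with a mean of at least 1 CPM, as correlations of log2(CPM + 0.5) over libraries that share their regions and genotypes. *Tfap2a* was closest to *Ebf2*, *Pax5* and *Ebf3* (r = 0.996, 0.995 and 0.995). *Tfap2c* was closest to *Emx1*, *Eomes* and *Slc17a7* (0.997, 0.996 and 0.994). *Tfap2b* was closest to *Slc6a2* (0.973), *Galnt14* (0.947) and *Tacr3* (0.943), and its profile carries the genotype difference in DMH as well as the region.

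*Tfap2d* was closest to *Hs3st3b1* (r = 0.973), *2510009E07Rik* (0.972) and *Eid1* (0.971), and *Kctd1* to *Tubb4a* (0.970), *2510009E07Rik* (0.967) and *Rsrc1* (0.964). For *Kctd15* they were *Cic* (0.938), *Bahd1* (0.926) and *Mus81* (0.921), for *Cited2* *Cbll1* (0.890), *Ptms* (0.886) and *Cttnbp2nl* (0.867), and for *Tfap2e* *Otx1* (0.853), *Eif3h* (0.852) and *Slc2a1* (0.846). The sparse *Tfap2e* thus had the weakest best match of the 8.

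The AP-2 consensus GCCNNNGGC, a palindrome that reads alike on both strands, was searched in RefSeq promoter windows of GRCm38.p6, from 250 bases before to 50 after each gene start. It was found in 16.6% of 32851 windows. Of the members, 6 had windows (11 in all), and only *Kctd15* held it, in 2 of its 3 windows with 4 matches. The share of member windows with it, 2 of 11, was thus near the share of all windows. The 29 bases around the match in the window chr7:34655460-34655759 (reverse strand) and around the 3 in chr7:34652883-34653182 are shown with the consensus in capitals, since a repressor of AP-2 proteins is the gene concerned.
*Kctd15*, first window: ccgaaagcctGCCTTTGGCccgggagtcc
*Kctd15*, second window: agtcctgcagGCCCCTGGCactgctgcct
*Kctd15*, second window: tggcactgctGCCTCGGGCaagcgccctg
*Kctd15*, second window: tcgggcaagcGCCCTGGGCgtaagagctg
A match is a run of letters and not a measured binding site, and the level of *Kctd15* differed between genotypes by −0.07 in DMH as given above.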

How the data were processed

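The authors trimmed read pairs of stranded (dUTP) poly(A) libraries and aligned them to mm10, and the deposited tables hold whole-number counts per gene, without normalization, from STAR. The submitters' processing notes name cutadapt 2.4, STAR 2.6.1d, edgeR and GRCm38.p6. Lines that name no gene (5.46 to 9.98% unmapped, 4.96 to 7.85% multimapping, 4.68 to 7.46% without a feature, 1.10 to 1.62% ambiguous) stayed out. The counts of the strand that dUTP libraries read were used, unstranded counts were an alternative, and 1 count column per library was used by no fit. Of 54446 identifiers 54409 matched GENCODE vM21.

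Tests were made with edgeR 4.0.16 in R 4.3.3 (TMM, filterByExpr, robust quasi-likelihood), 1 fit over all genes per comparison. Sex was a covariate where both sexes entered, and DESeq2 1.42.0 was an alternative. The fits were tested on simulated data with the same spread for every gene and no difference in *Hox* content, unlike the DMH pieces here. Standard errors were obtained from each log2 fold change and its F statistic. The filter removed no member. The libraries of a condition were separate embryos, and no pair of libraries was a copy (lowest chi-square per gene 9.62 over 24 pairs). SP and DMH libraries of the same embryo deviated together from their group means (correlations of 0.134 to 0.712 over 12 pairs), and a block by embryo changed no regional call of a member.

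Named genes were the 8 members, the list genes called, and the 3 nearest profiles of each member. The uncalled list genes named were added after their values were seen. Members and lists were chosen with earlier results of these data known, and 1 listed gene had no match. Some genes of the lists are not reported here. The other alternatives were RLE size factors, no filter, the likelihood ratio test, an FDR under 0.05 without a fold threshold, the replicate number as a block, female mutant 3 included, the caudal *Hox* settings and each replicate left out in turn. No protein sequences were used here.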

Additional observations from a re-analysis of the deposited data

Results flagged for a closer look

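In groups of 5 or 6 libraries of a region and genotype, 4 values of the members stood far from the rest of their group. Across the 32 groups examined, chance alone sets a value apart in about 1 group of 20. *Kctd15* was at 44.6 CPM in SP of male mutant 1, with the next mutant at 72.6 CPM. *Tfap2a* was at 0.348 CPM in SP of male mutant 3, with the next at 1.11 CPM, and this library had 40.9 CPM of choroid plexus genes (206 to 544 CPM in the other SP libraries) and 65.7 CPM of neural crest mesenchyme and meninges genes (174 to 257 CPM). *Tfap2c* was at 1.47 CPM in DMH of female mutant 1, with the next at 0.623 CPM. *Tfap2d* was at 45.6 CPM in DMH of female control 1, with the next control at 30.3 CPM, and this is the control piece with 0.0378 CPM of caudal *Hox* genes.

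The genotype difference of *Tfap2b* was not the same in the regions, by −2.83 on the log2 scale in the test of the difference itself (SE 0.16, edgeR adjusted p = 5.48e-10). In the library left out of the comparisons, DMH of female mutant 3, *Tfap2c* was at 3.09 CPM, above the highest control (0.934 CPM), with 204 fragments behind it.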

How the results depend on the processing

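The number of members called was within 1.5 times its value under most alternatives. In female DMH it was 2 without a filter on low counts (1.81% of all genes tested were called) and ran from 0 (without female mutant 1, 0% of genes) to 4 (without female control 1, 6.63% of genes) when each replicate was left out. In female SP it was 1 without a filter (0.0855% of genes) and 1 with the replicate number as a block (0.41% of genes), each time *Tfap2e*. In the regional comparison of controls it was 7 at an FDR under 0.05 with no fold threshold, where 67.9% of genes were called. The summed AP-2 level of mutant DMH was 29.0% of control without division by gene length. With female mutant 3 included, an alternative chosen after seeing the data, it was 41.9% in DMH and 98.5% in SP.

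Some values changed sign in some settings, among them the DMH values of *Tfap2c* and *Tfap2e* (0.29 and 0.34 over both sexes). In DMH pieces with at least 50 CPM of caudal *Hox* genes (male mutants only) and, over both sexes, with the *Hox* level as a covariate, the values were 0.0175 and 0.0120 for *Tfap2a*, −0.66 and −0.22 for *Tfap2c*, and −0.0052 and −0.0720 for *Tfap2e*, and in the former setting *Cited2* was −0.0089 by genotype and −0.0026 by region. In SP, *Tfap2b* was 0.0117 with unstranded counts and *Tfap2c* −0.0132 with female mutant 3 included. With each replicate left out in turn, DMH values ran from −0.0927 to 0.0451 for *Tfap2a* and from −0.19 to 0.76 for *Tfap2c*. SP values ran from −0.11 to 0.0870 for *Tfap2b*, −0.0302 to 0.10 for *Tfap2c*, −0.0382 to 0.20 for *Tfap2d*, −0.31 to 0.0413 for *Tfap2e*, −0.0087 to 0.12 for *Kctd1* and −0.15 to 0.0081 for *Kctd15*, and the regional value of *Cited2* from −0.0026 to 0.0726. The cause was not tested.

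Mutants and controls of 1 number were not treated as pairs, because the labels tie them to nothing shared and not every correlation of their deviations was over 0.1. The correlation was over 0.1 in 9 of 12 pairs, among them all 3 of male SP, and 8 of 12 were highest with their own number, a hint from the data of something shared. Beside *Tfap2e* in female SP (−0.70, edgeR adjusted p = 0.0134), the replicate block changed no call of a member. Over all genes it called 4 higher and 37 lower in female DMH (1 called without it) and 37 higher and 34 lower in female SP (3 without it). The filter removed no member, so members under it were not examined separately. *Hox*-low pieces could not be left out in female DMH, which has too few others. The depth limits *Tfap2c* in DMH, where 9 to 44 fragments were counted per control library.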
